A study of Mus musculus with 12 samples.

Results

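The Hox genes encode homeodomain transcription factors that give cells their position along the head-to-tail axis of the embryo, and in mammals they lie in 4 clusters, Hoxa to Hoxd, in which the order of the genes along the chromosome follows the order of their expression along the body. Paralog groups are numbered from the anterior (1) to the posterior end (13). In cells that do not use them the clusters are known for wide tracts of unmethylated CpGs held silent by Polycomb proteins, and Pdx1, a master regulator of β cells, belongs to the related ParaHox group. The DNA methylation of 38 listed Hox genes, of 21757 protein-coding genes in the annotation, was followed in whole-genome bisulfite sequencing (WGBS) of sorted mouse β cells: 10 genes each in Hoxa and Hoxb and 9 each in Hoxc and Hoxd. Each cluster was taken from its first to its last listed gene with 20 kb added on both sides, 645775 bp in all.

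The mice carried Myt1cCre, Ngn3nCre, Rosa26eYFP and InsApple, so that 2 parts of Cre, expressed with Myt1 and with Neurog3 (Ngn3), had to meet in a progenitor for its descendants to make eYFP, and Apple marked the β cells. eYFP+ β cells therefore descend from progenitors that co-expressed Myt1 and Neurog3, and eYFP- β cells from other Neurog3+ progenitors. At postnatal day 2 (P2) there were 2 libraries of each subtype and at postnatal day 60 (P60) there were 4, 12 libraries in all, each made from combined sorts of several mice. All groups share the genotype, and the labels call the reporter eGFP and the cells all islet cells while the protocol describes sorting on eYFP and Apple.

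Read counts per CpG were deposited for 4 pools only (P2 eYFP-, P2 eYFP+, P60 eYFP- and P60 eYFP+), so a methylation level here is the percent of methylated reads among all reads on the CpGs of a region in 1 pool, and a test of levels compares pools and not animals. The pools held 24.0 and 24.2 reads per CpG at P2 and 43.7 and 43.4 at P60, and inside the 4 Hox spans 24.2 and 23.9 at P2 and 61.8 and 60.5 at P60. Single libraries carry only the positions of their hypomethylated regions (HMRs), runs of CpGs that the authors' caller set apart from the methylated genome. The sex labels of both P2 eYFP- libraries went against their X chromosomes: of 253 X-linked HMRs found in every P60 male library and in no P60 female library, 91.7% were present in replicate 1 (labelled female) and 13.4% in replicate 2 (labelled male). The P2 eYFP- pool therefore still held 1 library of each kind. The P2 libraries carry a project number of their own, P60 replicates 1 and 2 another and P60 replicates 3 and 4 yet another, so stage and sequencing project cannot be told apart. Starts of β cell markers were low to intermediate (0.527% to 35.1% at P2 and 0.323% to 14.9% at P60, 8 genes), while those of the 3 blood markers, Ptprc, Spi1 and Cd68, lay between 47.1% and 79.6% in all 4 pools. Low starts were also found at genes of other cell types, such as Irx2 of α cells (0.69% to 1.46%), Hhex of δ cells (0.773% to 1.94%), Ptf1a of acinar cells (0.797% to 1.01%) and Kdr of endothelium (0.811% to 2.09%). The same lists also held methylated starts. Over the 4 pools the 5 α cell genes spanned 0.69% to 62.3%, and the 3 genes of δ and pancreatic polypeptide cells 0.773% to 87.3%. The 5 acinar genes spanned 0.797% to 85.7% and the 3 endothelial genes 0.811% to 83.0%. Low starts thus do not single out β cells, and the cell type rests on the sort.

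The 200 bases upstream of 5 Hox starts are shown because the results below concern the CpGs at Hox starts, and these stretches show how CpG-rich they are: Hoxb4 (chr11:96208893-96209092), Hoxd3 (chr2:74542071-74542270) and Hoxd13 (chr2:74498454-74498653) are starts whose windows gained methylation between P2 and P60, and Hoxb13 (chr11:96084906-96085105) and Hoxc13 (chr15:102829338-102829537) are among the least methylated starts. All 5 were read from the plus strand of mm39 (GRCm39), 5′ to 3′, with CpGs in capitals. None of the 5 falls in an annotated exon.
Hoxb4: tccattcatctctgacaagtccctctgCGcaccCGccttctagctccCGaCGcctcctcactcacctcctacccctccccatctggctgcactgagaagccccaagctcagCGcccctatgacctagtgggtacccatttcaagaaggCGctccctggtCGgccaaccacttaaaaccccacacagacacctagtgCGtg
Hoxd3: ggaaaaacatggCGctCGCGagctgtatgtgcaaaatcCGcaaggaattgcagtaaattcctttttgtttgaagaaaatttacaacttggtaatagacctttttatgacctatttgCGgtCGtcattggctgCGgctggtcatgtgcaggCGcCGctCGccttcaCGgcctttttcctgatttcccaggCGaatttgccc
Hoxd13: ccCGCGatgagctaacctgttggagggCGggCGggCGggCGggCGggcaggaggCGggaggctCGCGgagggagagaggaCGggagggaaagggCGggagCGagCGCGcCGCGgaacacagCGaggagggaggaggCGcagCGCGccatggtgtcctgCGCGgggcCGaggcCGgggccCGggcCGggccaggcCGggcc
Hoxb13: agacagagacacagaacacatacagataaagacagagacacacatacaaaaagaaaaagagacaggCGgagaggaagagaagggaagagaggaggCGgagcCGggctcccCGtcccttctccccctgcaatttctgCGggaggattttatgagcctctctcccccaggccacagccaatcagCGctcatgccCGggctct
Hoxc13: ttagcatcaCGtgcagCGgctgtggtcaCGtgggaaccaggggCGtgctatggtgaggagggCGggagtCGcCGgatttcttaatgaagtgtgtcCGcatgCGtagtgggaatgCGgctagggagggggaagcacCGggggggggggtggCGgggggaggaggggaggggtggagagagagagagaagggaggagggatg
The Hoxd13 stretch holds 28 CpGs, and its level was 1.77% (95% Wilson interval 0.90 to 3.45) and 4.46% (2.84 to 6.93) in the P2 eYFP- and eYFP+ pools and 7.15% (6.03 to 8.45) and 5.68% (4.56 to 7.05) at P60. The Hoxd3 stretch, with 12 CpGs, stood at 1.94% and 3.29% at P2 and at 6.98% and 8.95% at P60, and the Hoxb4 stretch, with 8, at 3.98% and 3.35% and then at 8.26% and 9.14%. Stretches with few and with many CpGs are thus found among those that gained. The Hoxc13 stretch, with 12 CpGs, went from 0% (0 of 204 reads) and 1.79% to 1.68% and 1.53%, and the Hoxb13 stretch, with 7, from 0.556% and 2.44% to 3.66% and 2.07%.

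To ask how far the Hox clusters are unmethylated in β cells, HMRs of the 4 pools were merged where they overlap, which gave 37 HMRs in the Hox spans out of 87689 in the genome. The 4 widest HMRs of the whole genome lay one in each Hox cluster. The widest, of 54866 bp (chr11:96141394-96196259), holds the starts of Hoxb5 to Hoxb9, genes of the trunk. The next, of 54176 bp (chr2:74477894-74532069), holds those of Hoxd9 to Hoxd13, the genes that pattern limbs and digits. They were followed by 41233 bp over Hoxa3 to Hoxa7 (chr6:52158953-52200185) and 39502 bp over Hoxc10 to Hoxc12 (chr15:102838607-102878108). Of the 30 widest HMRs of the genome 10 were Hox HMRs, and 15 Hox HMRs were 10 kb or wider, against 134 elsewhere in the genome. The members were chosen by name, though with earlier results of these data known, so these ranks are a description with no test.

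HMRs covered 76.5% of the 4 spans and held 91.7% of their 14019 CpGs. Inside these HMRs the level was 5.76% and 5.96% in the P2 eYFP- and eYFP+ pools and 7.38% and 7.59% at P60. Outside them it was 67.1% and 67.7% at P2 and 62.4% and 62.5% at P60, so the HMRs and the DNA between them moved in opposite directions between the stages. Over the CpGs of the whole genome the level fell too, from 69.3% and 70.0% at P2 to 67.8% and 67.5% at P60. Hoxd had the lowest level inside HMRs (4.34% in the P2 eYFP- pool) and Hoxa the highest (6.70%). The profile along each cluster shows the long low tracts broken by a few methylated stretches, the longest of them between Hoxb9 and Hoxb13.

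**Figure D1:**
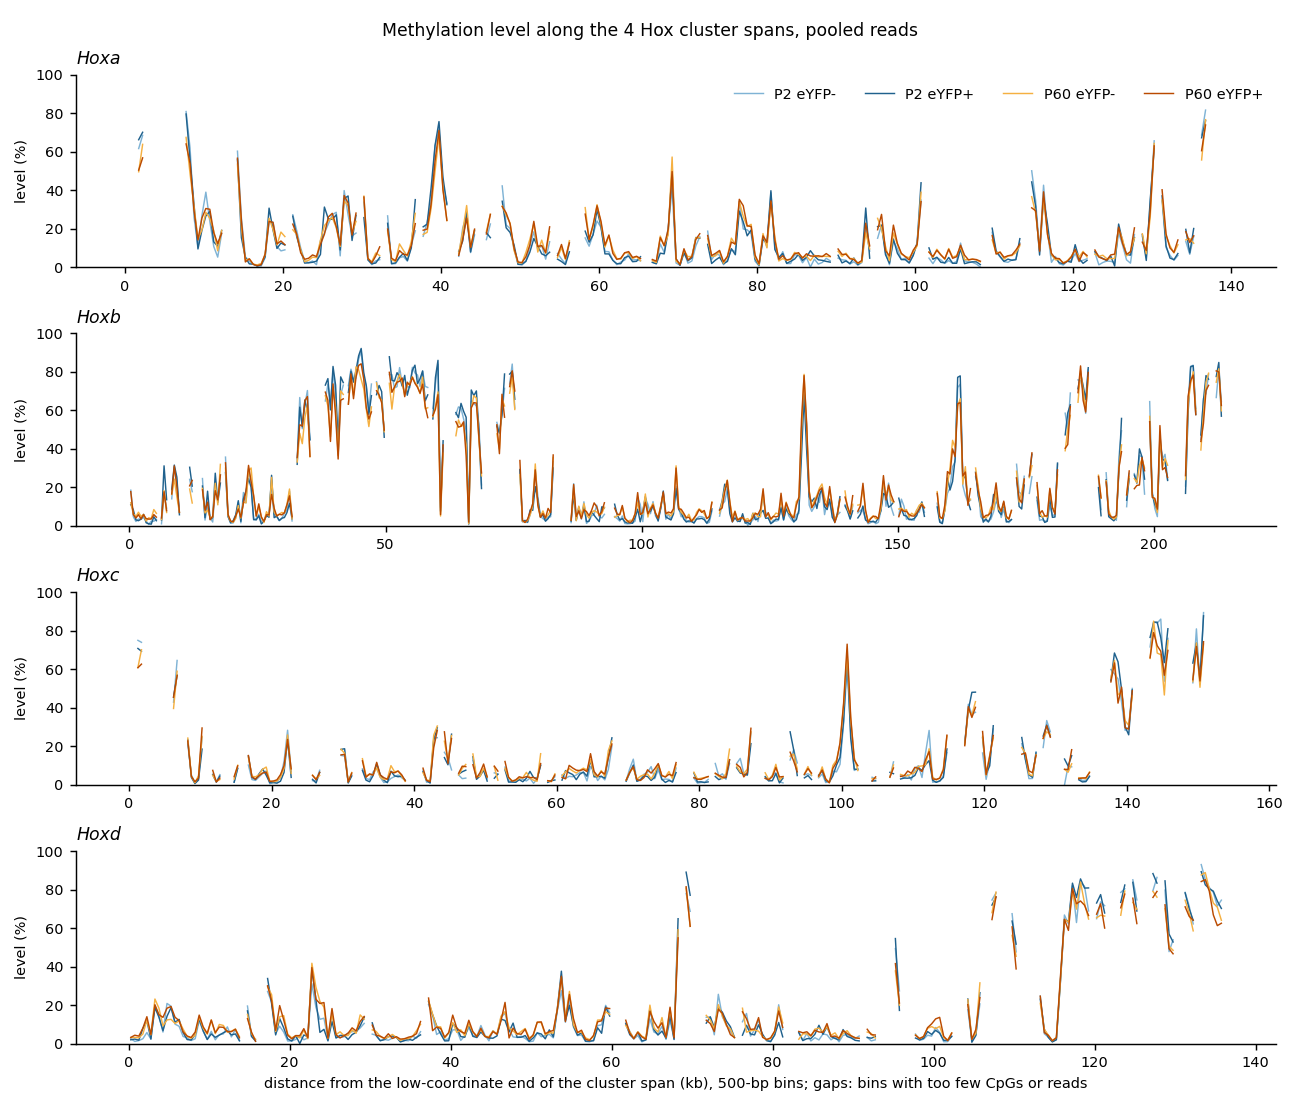
Methylation level (percent of reads, vertical axis) in 500-bp bins against the distance in kb from the low-coordinate end of each cluster span, 1 line for each of the 4 pools. The 4 lines run close together, low inside HMRs (5.76% to 7.59% over all HMRs) and high between them (62.4% to 67.7%).

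The start window of a gene was taken as 500 bp on each side of the start of its canonical transcript. All 38 Hox start windows were low, from 0.96% (Hoxc13 in the P2 eYFP- pool) to 15.2% (Hoxb2 in the P60 eYFP- pool). Their median was 2.63% and 3.02% in the P2 eYFP- and eYFP+ pools and 4.09% and 4.23% at P60. Within the HMR calls of single libraries, 37 of the 38 starts lay in an HMR of all 12 libraries, against 59.5% of 21719 other protein-coding starts, and the exception was Hoxb2, whose start lay in an HMR in 8 of the 12. No start window overlapped another, and the Hox windows held a median of 50.5 CpGs against 43 at other genes.

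Between P2 and P60 the Hox starts gained a little methylation, and nearly all of them did so in both subtypes. The level was higher at P60 at 36 of 38 starts in eYFP- and at 36 of 38 in eYFP+ cells, 34 of them in both, with median differences of 1.49 and 1.13 points. Among 12202 other starts with a mean P2 level under 10%, the median difference was -0.016 and -0.147 points, and 48.2% and 38.6% were higher at P60. Among the 124 such starts that lie in another HMR of 10 kb or more, however, the median was 1.09 and 0.952 points with 87.9% and 88.7% higher, on the same side as the Hox starts and of like size. Other starts in wide HMRs thus gained too, and nothing here sets the Hox starts apart from them.

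For each start the methylated and unmethylated reads of 2 pools entered a Fisher's exact test (two-sided; p adjusted by Benjamini-Hochberg over all starts), and a start was called where the adjusted p was under 0.05 and the levels differed by at least 5 points. By this rule 1 of 38 Hox starts was called in eYFP- cells, Hoxb2, against 9.88% of all starts tested, and 1 in eYFP+ cells, again Hoxb2, against 12.5%. Without the size condition 14 of 38 were called in each subtype, all higher at P60, against 17.4% of all starts in eYFP- and 22.1% in eYFP+ cells. The changes were thus mostly smaller than 5 points, in windows with many reads. The level of the mitochondrial genome, which is a measure of unconverted cytosines, was lower at P60 (0.379% and 0.386%) than at P2 (0.507% and 0.610%), and the part of conversion in the stage differences was not tested.

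**Figure D2:**
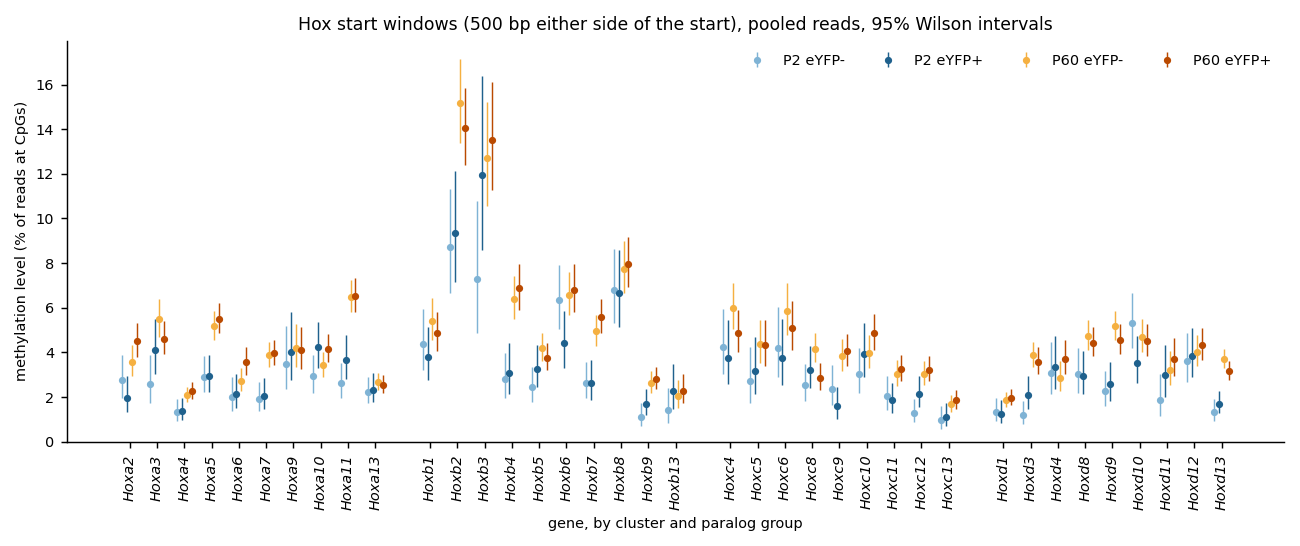
Methylation level (percent of reads at CpGs, vertical axis) of the start windows of the 38 Hox genes in the 4 pools, with 95% Wilson intervals that cover counting error only. Most P60 points lie above the P2 points of the same gene, and Hoxb2 and Hoxb3 stand highest, up to 15.2%.

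In Hoxa the 3 starts with the largest stage difference were Hoxa11, Hoxa5 and Hoxa7. Hoxa11, a gene of kidney and forearm development, went from 2.63% and 3.65% (eYFP- and eYFP+) at P2 to 6.50% and 6.52% at P60, with an adjusted p of 3.4e-08 and 0.00054 (Fisher's exact test). Hoxa5, known for lung and rib patterning, went from 2.92% and 2.94% to 5.18% and 5.50% (adjusted p = 0.0014 and 0.00034). Hoxa7, a gene of the thoracic region, went from 1.90% and 2.03% to 3.87% and 3.97% (adjusted p = 0.00079 and 0.0016). All 3 were higher at P60 in both subtypes by less than 4 points. The smallest difference was at Hoxa10, which acts in the lumbar spine and the uterus, with 2.92% and 4.22% at P2 and 3.42% and 4.16% at P60.

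Hoxb held the starts with the highest levels. Hoxb2, a gene of the hindbrain, went from 8.73% and 9.33% at P2 to 15.2% and 14.0% at P60 (adjusted p = 0.00066 and 0.0094), and over the CpGs that entered the test (5 reads or more in each pool) the difference was 6.82 and 5.58 points. Hoxb3, its neighbour and also a hindbrain gene, stood at 7.28% and 11.9% at P2 and at 12.7% and 13.5% at P60, over 15 CpGs (adjusted p = 0.065 and 0.66). Hoxb4, known for the expansion of blood stem cells, went from 2.79% and 3.07% to 6.38% and 6.86% (adjusted p = 8.9e-05 and 0.00022). Hoxb2 and Hoxb4 thus passed the adjusted p in both subtypes and Hoxb3 in neither. Hoxb13, the most posterior Hoxb gene and a prostate regulator, had the smallest difference, with 1.43% and 2.26% at P2 and 2.04% and 2.29% at P60.

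In Hoxc the median difference over the 9 starts was 1.61 points in eYFP- and 1.10 points in eYFP+ cells, and the 3 starts with the largest difference were Hoxc9, Hoxc6 and Hoxc4. Hoxc9, which helps to set the identity of thoracic motor neurons, went from 2.38% and 1.58% to 3.82% and 4.04% and passed in eYFP+ cells (adjusted p = 0.00043) and not in eYFP- cells (adjusted p = 0.11). Hoxc6, a gene of the brachial region, stood at 4.21% and 3.73% at P2 and at 5.84% and 5.10% at P60, and neither difference passed (adjusted p = 0.35 and 0.36). Hoxc4, an anterior member, with 4.24% and 3.76% at P2 and 5.99% and 4.87% at P60, did not pass either (adjusted p = 0.23 and 0.44). Whether the subtypes differ in these changes is tested further on. The smallest difference was at Hoxc8, a gene of the thorax, with 2.54% and 3.22% at P2 and 4.15% and 2.84% at P60.

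In Hoxd, Hoxd9, a posterior gene also used in the forelimb, went from 2.26% and 2.57% to 5.18% and 4.54% (adjusted p = 1.5e-05 and 0.01). Hoxd3, a gene of the cervical spine, went from 1.19% and 2.07% to 3.88% and 3.58% (adjusted p = 2.2e-07 and 0.028). Hoxd13, which shapes the digits, went from 1.34% and 1.70% to 3.70% and 3.16% (adjusted p = 3.3e-08 and 0.0009). These 3 rose in both subtypes from starts under 3%. Hoxd4, of the hindbrain and neck, had the smallest difference, with 3.08% and 3.35% at P2 and 2.85% and 3.71% at P60. By paralog group, the median differences were 1.75 and 1.10 points in groups 1 to 4 (11 genes), 1.69 and 1.43 points in groups 5 to 8 (11 genes) and 0.963 and 0.944 points in groups 9 to 13 (16 genes), a description with no test.

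At Hoxb2 the HMR calls moved with the level. The upstream end of the HMR over Hoxb2 lay at -162 bp from the start in both P2 pools and at 53 bp, inside the gene, in both P60 pools. In the P2 libraries it lay at -508 and -162 bp in eYFP+ replicates 1 and 2 and at -1487 and -162 bp in eYFP- replicates 1 and 2. In the P60 eYFP+ libraries it lay at -47, -10, -92 and 53 bp and in the P60 eYFP- libraries at 70, 53, -72 and 53 bp. All 8 P60 libraries thus ended nearer to the gene than all 4 P2 libraries, also without both P2 eYFP- libraries, and in 4 of the 8 the start itself was outside the HMR. This end was examined after the level was seen and has no test. With the start of the longer gene record in place of the canonical start, Hoxb2 was not called in either subtype (9.49 points, adjusted p = 0.061 and 0.838 points, adjusted p = 0.95, Fisher's exact test), and with 1000 bp on each side it was called in eYFP- (7.43 points) and not in eYFP+ cells (3.93 points).

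**Figure D3:**
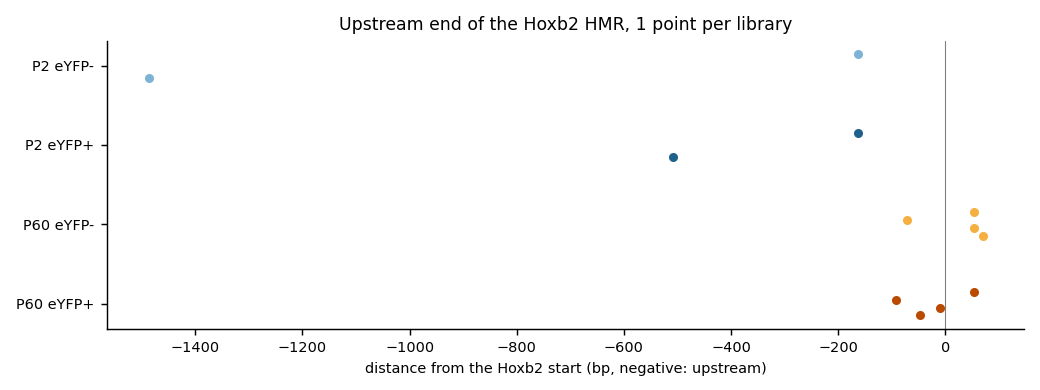
Upstream end of the HMR over Hoxb2, in bp from the start (horizontal axis; negative is upstream), 1 point for each of 12 libraries in the 4 groups. The HMR ends lie between -1487 and -162 bp at P2 and between -92 and 70 bp at P60.

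Over whole HMRs the same direction was found. Of the 37 Hox HMRs 36 had a higher level at P60 in eYFP- and 31 in eYFP+ cells, and all 15 Hox HMRs of 10 kb or more were higher in both, by 0.480 to 2.71 points in eYFP- and by 0.831 to 2.80 points in eYFP+ cells. The other HMRs of 10 kb or more behaved alike, with 94.0% and 92.5% higher and medians of 1.89 and 1.86 points against 1.74 and 1.68 points in Hox. By the same rule as for starts 2 of 37 Hox HMRs were called in eYFP- cells, both higher at P60, against 41.7% of all HMRs, and 1 in eYFP+ cells, also higher, against 41.7%. Without the size condition 21 (20 higher and 1 lower) and 19 (all higher) were called, against 50.4% and 50.5%. Both shares of Hox HMRs with a change of at least 5 points lie under the background, a difference that was not tested.

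The called Hox HMRs were small and held no Hox start. The first, of 1400 bp and 9 CpGs at the Hoxa edge (chr6:52122205-52123604), went from 19.3% to 32.5% in eYFP- cells (adjusted p = 0.00031, Fisher's exact test) and from 27.8% to 25.4% in eYFP+ cells (adjusted p = 0.64). In single libraries it covered 1213 to 1400 bp at P2 and 0 bp in 7 P60 libraries of both subtypes (log2 difference of width -3.38 ± 0.68 SE, limma adjusted p = 0.0057). The second, of 409 bp and 12 CpGs between Hoxd9 and Hoxd8 (chr2:74532487-74532895), went from 2.82% to 8.23% in eYFP- cells (adjusted p = 0.0067) and from 6.58% to 7.35% in eYFP+ cells. The third, of 283 bp and 7 CpGs (chr11:96271247-96271529, downstream of Hoxb1), went from 17.8% to 20.4% in eYFP- cells (adjusted p = 0.61) and from 13.6% to 21.6% in eYFP+ cells (adjusted p = 0.03). None of the 3 is among the wide HMRs described above.

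Of the HMRs with at least 10 CpGs, those with the largest stage difference in each cluster were mostly short. Over Hoxb2 (an HMR of 5123 bp) the level went from 5.32% and 5.61% at P2 to 8.79% and 9.24% at P60 (adjusted p = 2.1e-12 and 2.2e-13, Fisher's exact test), a rise of less than 5 points. Near Hoxa13 the HMR of 4089 bp (chr6:52250036-52254124) went from 8.37% and 9.11% to 11.5% and 13.04% (adjusted p = 5.9e-05 and 1.6e-06). At the other end of Hoxa the HMR of 4873 bp (chr6:52127515-52132387) stood at 16.9% and 17.8% at P2 and at 19.4% and 20.1% at P60 (adjusted p = 0.073 and 0.099). The HMRs over Hoxb2 and near Hoxa13 thus passed the adjusted p in both subtypes and the HMR of 4873 bp in neither. In Hoxb the HMR of 1087 bp behind Hoxb1 (chr11:96259181-96260267) stood at 13.5% and 16.2% and then at 17.7% and 19.6%, over 13 CpGs (adjusted p = 0.12 and 0.22), and in Hoxc that of 655 bp (chr15:102949277-102949931) at 24.9% and 22.0% and then at 26.5% and 24.98% (adjusted p = 0.54 and 0.26).

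The 2 widest HMRs of each cluster rose in both subtypes, by 0.831 to 2.08 points. The Hoxd9 to Hoxd13 HMR went from 4.32% and 4.47% to 6.06% and 6.27%, and the Hoxb5 to Hoxb9 HMR from 4.56% and 4.71% to 6.42% and 6.67%. The Hoxa3 to Hoxa7 HMR went from 7.38% and 7.44% to 9.35% and 9.52%, and the Hoxa9 to Hoxa11 HMR from 4.34% and 4.81% to 6.12% and 6.49%. In Hoxc the HMR over Hoxc10 to Hoxc12 went from 4.69% and 5.11% to 6.20% and 6.42% and that over Hoxc8 and Hoxc9 from 4.95% and 4.61% to 6.69% and 6.58%. The smallest rise was around Hoxb13 and the largest over Hoxa3 to Hoxa7. Around Hoxb13 the level went from 6.68% and 6.95% to 7.62% and 7.78%, and over Hoxd4 from 4.59% and 4.62% to 5.81% and 5.85%, and each of the 8 passed the adjusted p in both subtypes.

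Inside the wide Hox HMRs the gain was spread along their length. In the outer 1 kb at each end the level went from 12.9% and 14.0% at P2 to 15.4% and 15.7% at P60, and more than 3 kb from both ends from 4.85% and 4.97% to 6.52% and 6.69%. Of 743 bins of 500 bp, 9.29% and 9.96% gained more than 5 points, against 17.4% and 17.9% of 3908 bins in the other wide HMRs. The Hox share was the lower one, a description with no test. Over gene bodies 33 and 35 of 38 Hox genes were higher at P60, while 41.7% and 34.3% of all genes were. Hoxb5, known for the position of the shoulder, was the 1 called gene body in both subtypes (9.03% and 9.39% at P2, 15.02% and 14.5% at P60), against 18.9% and 22.7% of all gene bodies. Without the size condition 25 and 29 Hox bodies were called, against 61.9% and 66.3% of all, with 24 and 28 higher and 1 lower in each subtype. The lower one was Hoxd1, with 14.1% and 13.9% at P2 and 11.3% and 11.9% at P60 (adjusted p = 0.00049 and 0.015, Fisher's exact test). The bodies of Hoxa3 and Hoxd3 overlap those of their neighbours Hoxa4, Hoxa5 and Hoxa6 and of Hoxd4.

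Whether the HMRs themselves narrowed was asked in the 12 libraries. The covered width of each merged HMR in each library was tested with limma on log2(bp + 100) over all autosomal HMRs, as the average of both subtypes. At P60, 33 of 37 Hox HMRs were narrower by their mean, against 56790 of all 84472 autosomal HMRs and 124 of 132 others of 10 kb or more. Of the 37 Hox HMRs 9 were called at an adjusted p under 0.05 (8 narrower and 1 wider), a share near the 24.5% of all HMRs. With the replicate number as a block 5 were called, and without both P2 eYFP- libraries, where the stage is compared in eYFP+ cells only, 3 were. Without P2 eYFP- replicate 1 alone 5 were called. The median log2 difference of the Hox HMRs was -0.10, against -0.18 over all HMRs. Of the 15 wide Hox HMRs 7 were called, all narrower, and of 132 other wide autosomal HMRs 47 were called and 45 of these were narrower.

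Of the 2 widest HMRs of each cluster, the one over Hoxa3 to Hoxa7 lost the most width by its mean. At P2 it covered 39019 and 39579 bp in the eYFP+ libraries and 36421 and 38554 bp in the eYFP- libraries. At P60 it covered 35754, 33244, 35636 and 33411 bp in the eYFP+ libraries and 34825, 35607, 35689 and 33988 bp in the eYFP- libraries. All 8 P60 libraries were below all 4 P2 libraries, and the log2 difference was -0.14 ± 0.027 (SE, limma adjusted p = 0.0048, and 0.036 with the replicate block; exact permutation test, two-sided p = 0.00404, the smallest that 4 against 8 libraries allow). The exact test takes all libraries as independent, although same-numbered libraries, which share a sex label, deviated together at P60. Its p is too small to the extent that the libraries are not independent.

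The HMR over Hoxc8 and Hoxc9 (chr15:102879282-102909749) covered 30468 bp in 3 of the P2 libraries and 30024 bp in the other, and 27324 to 29095 bp in the 8 P60 libraries (log2 difference -0.09 ± 0.016 SE, limma adjusted p = 0.0039). The HMR around Hoxb13 (chr11:96059460-96097960) covered 37486 to 38501 bp at P2 and 35034 to 37254 bp at P60 (log2 difference -0.06 ± 0.017 SE, limma adjusted p = 0.026, and 0.077 with the replicate block). The ranges of both stages do not overlap in either. The HMR over Hoxc10 to Hoxc12 covered 38296 to 39502 bp at P2 and 36022 to 38820 bp at P60, with overlap (limma adjusted p = 0.041, and 0.14 with the block). The 2 widest of all differed less: the Hoxb5 to Hoxb9 HMR covered 54127 to 54866 and 51434 to 54550 bp (limma adjusted p = 0.27) and the Hoxd9 to Hoxd13 HMR 53125 to 54176 and 51935 to 54163 bp (limma adjusted p = 0.27). In all, the ranges of the 2 stages did not overlap in 7 of 37 Hox HMRs, all of them narrower at P60, against 16.0% of all autosomal HMRs.

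**Figure D4:**
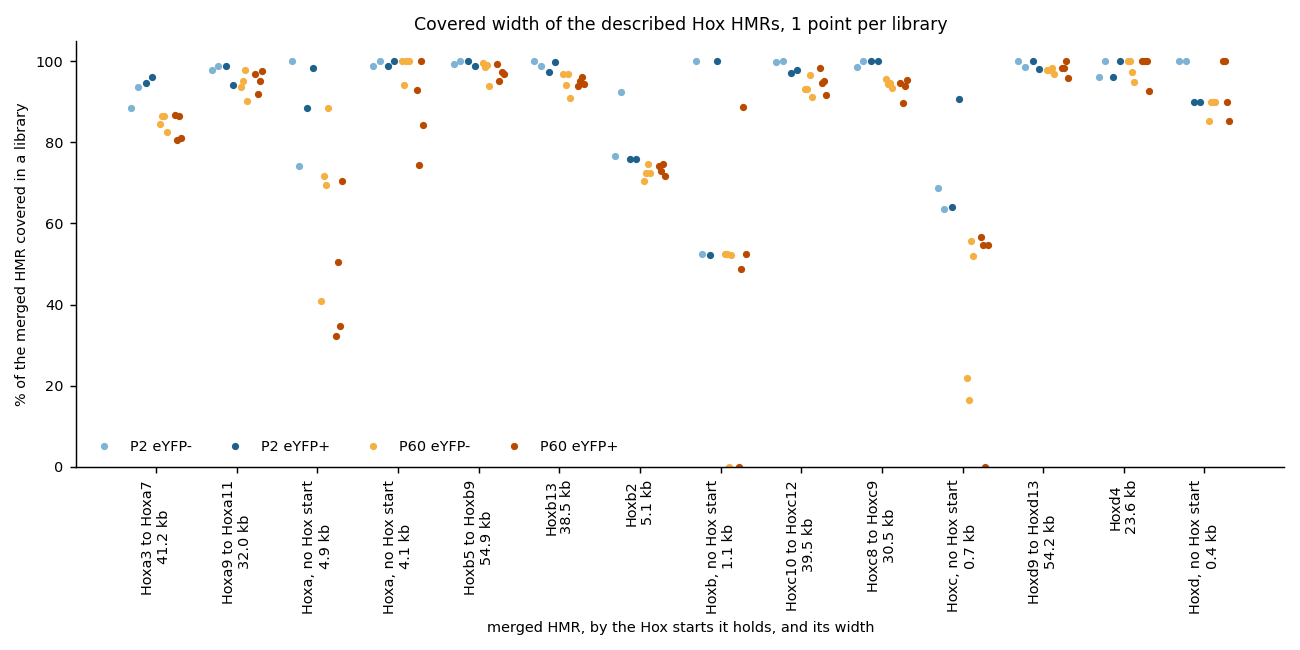
Percent of the merged width covered by HMRs (vertical axis), 1 point per library, for 14 Hox HMRs, the widest and those with the largest stage difference in level in each cluster. The P60 points of the Hoxa3 to Hoxa7 HMR all lie below the P2 points, while those of the Hoxd9 to Hoxd13 HMR overlap them.

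The loss of width went with a break-up into more pieces. The number of separate HMRs in the 4 Hox spans was 43 and 41 in the P2 eYFP+ libraries and 42 and 41 in the P2 eYFP- libraries. In the P60 eYFP+ libraries it was 51, 66, 53 and 71 and in the P60 eYFP- libraries 56, 64, 46 and 74, above all P2 libraries. The HMR over Hoxa3 to Hoxa7 was cut into 2 pieces in both P2 pools and into 9 in both P60 pools, and into 2 to 5 pieces in the P2 and 5 to 12 in the P60 libraries. The other wide HMRs of the genome were cut up too, from 1.29 ± 0.09 (SD, n = 4) pieces per HMR at P2 to 1.92 ± 0.22 (SD, n = 8) at P60, against 1.47 ± 0.12 and 2.59 ± 0.56 in Hox. The wide Hox HMRs were longer (median 28729 bp against 14156 bp), so pieces per HMR do not compare like with like. The mean share of their width covered went from 97.9% to 93.6% in Hox and from 97.2% to 92.4% in the others. At P60 the libraries labelled male (replicates 2 and 4) had 64 to 74 pieces in the Hox spans and those labelled female 46 to 56, and the numbers of HMRs in the whole genome also differed, 46269 to 49939 in male and 38052 to 44636 in female libraries, against 57109 to 60950 at P2. The depth of a single library is unknown, and the part of depth, sex or sequencing project in these counts was not tested.

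The length called hypomethylated in the 4 spans was 480.0 ± 1.39 kb (SD, n = 4) at P2 and 452.7 ± 5.55 kb (SD, n = 8) at P60. In Hoxa it went from 116.0 ± 1.64 to 105.6 ± 1.57 kb and in Hoxb from 141.3 ± 1.17 to 132.7 ± 2.05 kb, with no overlap between the stages. In Hoxc it went from 119.1 ± 1.18 to 112.3 ± 2.87 kb and in Hoxd from 103.6 ± 0.60 to 102.1 ± 1.97 kb, where the libraries of both stages overlapped. The clusters thus differed in how much they lost, Hoxa most and Hoxd least, which was not tested. Over the whole genome the HMR length of single libraries lay between 55.6 and 58.7 Mb at P2 and between 42.7 and 46.1 Mb at P60, also without overlap. The Hox spans thus lost a smaller part of their HMR length than the genome did, which was not tested either.

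**Figure D5:**
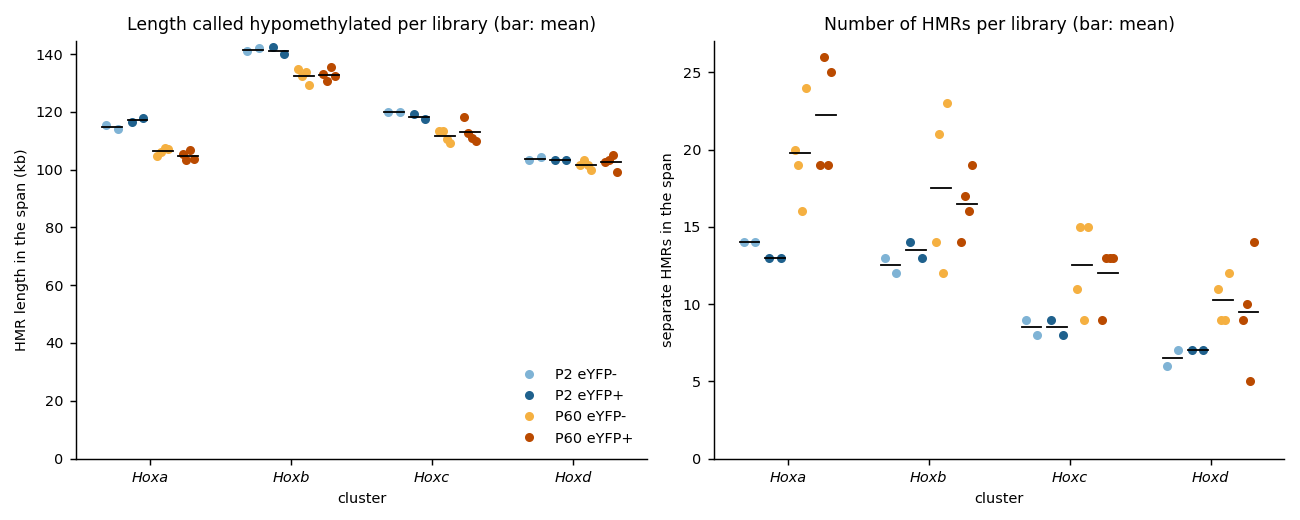
Left, kb of each cluster span covered by HMRs; right, the number of separate HMRs in the span; 1 point per library, with bars at the means of the 4 groups. Hoxa goes from 114.2 to 117.9 kb at P2 to 103.5 to 107.5 kb at P60, and Hoxd stays between 99.2 and 105.1 kb in all 12.

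The DNA that left the HMRs was CpG-poor. Between the pools, 33 stretches were in HMRs of both P2 pools and of neither P60 pool: 10 in Hoxa, 12 in Hoxb, 9 in Hoxc and 2 in Hoxd. They added up to 13913 bp, 2.92% of the 477103 bp in HMRs of both P2 pools, and held 112 CpGs, or 8.05 per kb. Their median level was 28.3% and 28.5% at P2 and 35.6% and 35.6% at P60, so they were already above the rest of the HMRs at P2. Only 1 stretch, of 170 bp in Hoxb, was gained. At 17 of the 33 lost stretches there were fewer than 3 CpGs, which limits what 1 stretch can show.

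The last question was whether eYFP+ and eYFP- β cells differ in their Hox clusters. No Hox start was called between the subtypes by Fisher's exact tests on the pools, with or without the size condition. At P2 0.696% of all starts were called (1.24% without the size condition), and 1 of 38 Hox starts had an unadjusted p under 0.05, against 11.3% of all starts. At P60 0.534% of all starts were called (1.63% without the size condition), and 2 of 38 Hox starts had an unadjusted p under 0.05, against 12.4%. Differences eYFP+ minus eYFP- ranged from -1.91 (Hoxb6) to 4.66 points (Hoxb3) at P2 and from -1.31 (Hoxc8) to 0.916 points (Hoxa2) at P60. No Hox HMR was called at P2, against 1.88% of all HMRs, or at P60, against 1.40%, and unadjusted p-values under 0.05 were found at 5 and 7 of 37 Hox HMRs, against 14.7% and 13.9% of all HMRs. Without the size condition there was none at P2, against 2.35% of all HMRs, and 1 at P60, against 2.07%. This HMR, of 13592 bp in Hoxb (chr11:96227656-96241247), stood at 9.92% in eYFP- and 10.9% in eYFP+ cells (adjusted p = 0.048).

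No Hox gene body was called at P2, against 1.64% of all gene bodies, or at P60, against 0.572%, and unadjusted p-values under 0.05 were found at 7 and 4 of 38, against 31.8% and 32.3%. Without the size condition there was 1 at each stage, against 20.1% and 20.8%: Hoxb7 at P2 (3.77% in eYFP- and 5.48% in eYFP+ cells, adjusted p = 0.027, Fisher's exact test) and Hoxa4 at P60 (7.29% and 8.74%, adjusted p = 0.0088). The shares of Hox gene bodies were thus under those of all gene bodies, and so were the shares of Hox HMRs at P2. At P60 the Hox HMRs lay above all HMRs in the share with an unadjusted p under 0.05 (7 of 37 against 13.9%). They also lay a little above in the share called without the size condition (1 of 37 against 2.07%). None of these differences was tested.

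The widths of the 37 Hox HMRs gave the same picture in the libraries. With limma none was called between the subtypes at P2, against 2.79% of all HMRs, or at P60, against 0.0533%, and none had an unadjusted p under 0.05, against 6.59% and 2.38%. For a stage change that differs between the subtypes none was called, against 2.60%, and 1 of 37 had an unadjusted p under 0.05, against 5.28%. In the pools, the difference of the 2 stage changes was called at 0 of 38 Hox starts, against 1.57% of all starts, and 3 had an unadjusted p under 0.05, against 12.2%. For the HMRs it was called at 0 of 37, against 1.39%, and 2 had an unadjusted p under 0.05, against 13.4%. Hoxc9, which passed in eYFP+ cells only, is therefore not shown to change differently in the subtypes. A comparison of 2 against 2 libraries at P2 cannot reach an exact p under 0.333.

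Of the authors' candidate differentially methylated regions (DMRs) between the subtypes, taken at 50 bp or more with at least 2 differing CpGs, 5 lay in the Hox spans. At P2 there was 1, lower in eYFP- cells (24.0% against 39.6%), of 429 bp inside the Hoxa3 gene near its 3′ end (chr6:52146557-52146985), with 3 differing CpGs. At P60, 2 lower in eYFP- cells lay 12213 and 13921 bp from the Hoxa13 gene (chr6:52250036-52250203 and chr6:52251744-52252741) (20.4% against 28.8% and 18.5% against 25.9%). A DMR lower in eYFP+ cells lay inside the long record of the Hoxc4 gene, before its canonical start (chr15:102938082-102938693, 26.8% against 29.4%), and another 16473 bp from the Hoxd13 gene (chr2:74481776-74482180, 28.6% against 38.5%). All 4 rested on 2 differing CpGs. Per 100000 CpGs the spans held 7.13 and 0 DMRs at P2, lower in eYFP- and in eYFP+ cells, against 8.77 and 10.1 in the genome, and 14.3 and 14.3 at P60 against 5.12 and 5.77, from counts of 0 to 2.

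The genes that work with Hox proteins had mostly low starts. Between the stages 9.88% of all starts were called in eYFP- and 12.5% in eYFP+ cells, and with lists this short a count of 0 or 1 is not set apart from those shares. Of 9 TALE cofactors (Pbx, Meis and Pknox genes, whose products bind DNA together with Hox proteins) none was called in either subtype between the stages, with levels of 0.32% to 6.40%. Of 14 Polycomb and Trithorax regulators of Hox clusters, such as Ezh2, Suz12 and Kmt2a, none was called either. Of 6 ParaHox genes 1 was called in both subtypes: Cdx4, on the X chromosome, went from 59.3% and 46.9% to 73.7% and 77.4%, and it was also lower in the eYFP+ pool at P2, the only member of these lists called there besides Pdgfrb, a mesenchyme marker. Evx1 and Evx2, homeobox genes at the ends of Hoxa and Hoxd, went from 2.38% and 1.77% to 6.35% and 5.31% and from 3.29% and 4.02% to 7.95% and 7.38%, and neither was called. Of the 10 genes flanking the clusters, Smug1 was called higher at P60 and Skap1 lower in both subtypes, and Calcoco2 lower in eYFP+ cells.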

How the data were processed

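The authors trimmed the reads with Trim Galore 0.6.6 and cutadapt 1.16, used abismal to map them to mm39, and took counts, HMRs and DMRs from MethPipe (SAMtools 1.5 per the labels; other versions are not given in the sources used here). The deposited tables hold counts of methylated and unmethylated reads per CpG for pooled libraries, with both strands merged, and the deposited HMR lists hold positions and a score for pools and for single libraries, without read counts, so the depth per library is unknown. Column B1 of the tables was taken as eYFP- and B2 as eYFP+, since each library shared more of its own subtype's HMRs. The deposited DMR lists and difference scores are the authors' own comparisons; only the positions, sizes and numbers of differing CpGs of the DMRs were used.

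Genes came from GENCODE vM39 (GRCm39). A CpG entered a test where each of the 2 pools had 5 reads or more on it, and a region where 3 or more such CpGs lay in it; the reads went into a Fisher's exact test (two-sided), with p adjusted by Benjamini-Hochberg over all regions of a kind. Covered widths were tested with limma 3.58.1 in 1 fit of the 12 libraries with a pseudocount of 100 bp; the replicate block averages the 2 libraries of a number. At P60 same-numbered libraries deviated together (correlations 0.156, 0.194, 0.268 and 0.138). Libraries of another number with the same sex label gave -0.0139, 0.199, 0.147 and 0.0912. Those of the other sex label lay between -0.221 and -0.0539. The parts of number and of sex label in this were not tested. At P2 each group holds 2 libraries, so the value (0.0105) only recurs with its sign changed. It cannot show whether the P2 libraries are paired. P-values over libraries measure the spread between libraries of combined mice. The paper combined several sorts for each stage and sex. Whether the P60 libraries of 1 subtype and sex came from separate DNA is not stated, so this spread may be partly technical. Intervals are 95% Wilson intervals and cover counting error only. Both tests were checked on simulated reads or widths that were drawn independently. Neither simulation held pairing or project effects, and that of the reads held no spread between animals, so these limits were not examined. The genes given in full were the 3 with the largest and the 1 with the smallest mean stage difference of each cluster, with the 2 widest HMRs, the 2 with the largest stage difference among those with at least 10 CpGs, and the DMRs. The members and lists were chosen with earlier results of these data known. Python 3.11.15, numpy 2.4.6, scipy 1.17.1 and R 4.3.3 were used. The sequence before 1 of the starts described is not reported here.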

Additional observations from a re-analysis of the deposited data

Results flagged for a closer look

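In 9 of 50 sets of 4 libraries from 1 group, 1 library stood apart from the other 3 by Dixon's ratio (past its 95% critical value), where chance gives about 1 set in 20. All 9 are P60 libraries, since the P2 groups hold too few to be examined, and HMR ends fall on CpGs, so libraries often share a value exactly. Of the P60 eYFP- libraries, replicate 4 had 445.12 kb of HMR in the 4 Hox spans, the lowest of its group, and 51434 bp of the Hoxb5 to Hoxb9 HMR, also the lowest. Replicate 3 had 0 bp of the 1087-bp HMR behind Hoxb1, and its Hoxb2 HMR ended at -72 bp from the start where the others ended inside the gene. Replicate 1 had 349 bp of the 409-bp HMR between Hoxd9 and Hoxd8, and replicate 2 had 3847 bp of the 4089-bp HMR near Hoxa13. Of the P60 eYFP+ libraries, replicate 1 had 9 separate HMRs in the Hoxc span, the fewest of its group. Replicate 3 had 0 bp of the 655-bp Hoxc HMR, and replicate 4 had 21850 bp of the Hoxd4 HMR, where the others had 23581 bp.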

How the results depend on the processing

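Of the counts of Hox calls recomputed under the alternatives, 101 stayed within 1.5 times the reported count and 33 did not; of the values of single starts and HMRs, 368 kept direction and call, 31 lost and 16 gained the call, and 16 reversed. Without the size condition the stage calls were 14 and 14 starts, 21 and 19 HMRs and 25 and 29 gene bodies (eYFP- and eYFP+), with 1 HMR at P60 and 1 gene body at each stage between the subtypes; at 10 points they were 0 and 0 starts, 1 and 0 HMRs and 0 and 0 gene bodies. With 1000 bp on each side 0 starts were called in eYFP+ cells, with HMRs of at least 500 bp 1 and 0 HMRs, and without the first 500 bp 2 gene bodies in eYFP- cells. With the gene record, an alternative chosen after seeing the data, 0 and 0 starts and, in eYFP+ cells, 0 gene bodies were called. It reversed Hoxd4 (2.69 points) and Hoxc4 (-3.38) in eYFP- and Hoxa10 (0.62), Hoxc6 (-0.062) and Hoxc4 (-2.73) in eYFP+ cells, and 1000 bp reversed Hoxc8 in eYFP+ cells (0.23); these starts then lie elsewhere.

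The 9 width calls became 5 with the replicate block, which left the counts between subtypes as they were, and 5 to 9 without each library in turn (5 without P2 eYFP- replicate 1, which also gave 1 call between subtypes at P2 and 1 for the stage change between subtypes, range 0 to 1 each). They were 5 with P60 replicates 1 and 2 only, which also gave 1 call between subtypes at P60 and 1 for the stage change between subtypes, and 4 with replicates 3 and 4 only. Chosen after seeing the data, leaving out both P2 eYFP- libraries gave 3 and keeping P60 females only 4. The width difference of the Hoxd4 HMR, near 0, lay between -0.014 and 0.016 without single libraries and turned to -0.027 with P60 replicates 3 and 4 only and to -0.017 with P60 males only, and that of the 409-bp Hoxd HMR to 0.046 without both P2 eYFP- libraries; the cause was not tested. At 3 or more differing CpGs, 1 DMR remained. Pool depth sets how small a difference in level passes, and the depth of single libraries is unknown.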
